A study of Mus musculus with 4 samples.

Results

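Deaf1 chromatin immunoprecipitation was examined at 39 mouse genes of interferon signalling and innate immunity, in cultured C2C12 cells, which derive from mouse muscle precursors and can fuse into myotubes. The genes were chosen by name for their function, and a gene was called occupied where each peak list placed a summit no more than 1 kb from one and the same end of its RefSeq span. All 39 were found in a table of RefSeq gene spans, where 37 are protein coding and 2, Mx1 and Mx2, are transcribed pseudogenes. The same rule was applied to 21631 protein-coding genes, those of the autosomes and of X. The series holds 2 replicates of Deaf1 ChIP and 2 of input chromatin, all from C2C12 cells, called myocytes in the sample labels but differentiated myoblasts in the description of the series, so their stage is not settled. The cells carried no treatment or genetic change that the labels name. The inputs entered no comparison, as peaks of the ChIP samples alone were used, and the labels do not say whether the replicates came from separate cultures. Peaks do not report expression, so the muscle identity of the cells was not checked here.

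Interferons bind paired receptor chains at the cell surface, which act through the kinases Jak1 and Tyk2 on Stat and Irf factors to switch on antiviral genes. Upstream of them, Toll-like receptors on membranes and RNA sensors in the cytosol pass their signal through adaptors to the kinases Tbk1 and Ikbke, to Irf3 and Irf7, and to NF-kappaB, and so lead to production of interferon beta. Most effectors are known as genes made after stimulation, but members of the other roles, such as Irf1 and Ikbke, can be induced too. Expression at rest was not measured in these cells. As the name of a role, inducible genes are here the ligands and effectors alone. Deaf1 is a transcription factor whose SAND domain recognises TTCG half-sites in DNA, and in Drosophila its relative is known for a part in the expression of immune genes.

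The RefSeq promoter sequences of 8 members (GRCm38.p6, the assembly behind mm10), each written 5′ to 3′ on the gene's strand and running from 250 bases before to 50 bases after the outermost listed transcription start, show what was compared. Capitals mark every TTCG or its reverse complement CGAA, and on either strand every GAAA that is followed, after any 2 bases, by another GAAA, the core of the element that Stat and Irf factors recognise. The first 3 are occupied genes chosen because Rela had the highest folds of all members and because the Tbk1 and Irf8 windows contain a Deaf1 summit. They are Rela at chr19:5637291-5637590 on the plus strand, Tbk1 at chr10:121586745-121587044 on the minus strand and Irf8 at chr8:120736108-120736407 on the plus strand.
Rela: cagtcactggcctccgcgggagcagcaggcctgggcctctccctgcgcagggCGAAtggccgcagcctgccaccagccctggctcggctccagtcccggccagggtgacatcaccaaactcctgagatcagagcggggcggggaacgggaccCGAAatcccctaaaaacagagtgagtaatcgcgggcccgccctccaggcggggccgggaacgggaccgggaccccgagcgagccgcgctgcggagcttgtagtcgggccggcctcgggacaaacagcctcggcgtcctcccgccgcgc
Tbk1: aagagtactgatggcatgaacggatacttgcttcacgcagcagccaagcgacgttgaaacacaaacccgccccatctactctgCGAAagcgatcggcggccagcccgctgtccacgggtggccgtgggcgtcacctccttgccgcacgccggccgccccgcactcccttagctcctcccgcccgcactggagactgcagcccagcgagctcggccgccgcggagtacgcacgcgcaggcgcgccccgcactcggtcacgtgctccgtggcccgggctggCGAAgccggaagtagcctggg
Irf8: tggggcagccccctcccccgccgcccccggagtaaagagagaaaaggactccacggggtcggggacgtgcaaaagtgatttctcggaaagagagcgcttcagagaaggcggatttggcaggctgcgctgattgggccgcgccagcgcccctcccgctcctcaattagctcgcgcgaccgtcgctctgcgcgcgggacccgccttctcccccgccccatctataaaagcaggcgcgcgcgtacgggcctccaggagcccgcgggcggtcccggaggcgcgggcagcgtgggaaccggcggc
The next 3 are occupied genes whose window also holds an interferon-response core, namely Ifih1 at chr2:62646206-62646505 on the minus strand, Myd88 at chr9:119339969-119340268 on the minus strand and Bst2 at chr8:71537423-71537722 on the minus strand.
Ifih1: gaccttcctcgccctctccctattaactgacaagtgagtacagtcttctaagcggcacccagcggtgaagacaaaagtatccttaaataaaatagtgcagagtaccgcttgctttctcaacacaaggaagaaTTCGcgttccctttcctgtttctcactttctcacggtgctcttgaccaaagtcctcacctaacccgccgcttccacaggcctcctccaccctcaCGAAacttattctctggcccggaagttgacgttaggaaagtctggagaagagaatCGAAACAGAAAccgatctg
Myd88: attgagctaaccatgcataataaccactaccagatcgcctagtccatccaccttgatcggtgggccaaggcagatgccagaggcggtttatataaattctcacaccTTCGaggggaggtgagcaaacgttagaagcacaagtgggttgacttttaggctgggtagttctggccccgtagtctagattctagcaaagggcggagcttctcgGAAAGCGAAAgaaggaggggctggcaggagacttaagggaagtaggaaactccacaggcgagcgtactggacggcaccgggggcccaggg
Bst2: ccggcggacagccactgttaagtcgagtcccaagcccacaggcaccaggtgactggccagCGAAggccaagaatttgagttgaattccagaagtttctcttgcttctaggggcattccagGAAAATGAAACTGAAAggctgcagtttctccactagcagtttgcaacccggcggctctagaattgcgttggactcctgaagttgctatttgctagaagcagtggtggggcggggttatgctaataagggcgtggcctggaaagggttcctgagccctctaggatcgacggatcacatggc
The last 2 are effector genes with such cores and no Deaf1 peak, Isg15 at chr4:156200769-156201068 on the minus strand and Ifit1 at chr19:34640639-34640938 on the plus strand.
Isg15: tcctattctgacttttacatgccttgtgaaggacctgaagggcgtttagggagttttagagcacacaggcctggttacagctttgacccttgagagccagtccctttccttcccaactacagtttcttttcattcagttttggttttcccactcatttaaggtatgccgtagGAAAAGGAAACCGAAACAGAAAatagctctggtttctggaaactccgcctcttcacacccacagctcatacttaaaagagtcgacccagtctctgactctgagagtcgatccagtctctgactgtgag
Ifit1: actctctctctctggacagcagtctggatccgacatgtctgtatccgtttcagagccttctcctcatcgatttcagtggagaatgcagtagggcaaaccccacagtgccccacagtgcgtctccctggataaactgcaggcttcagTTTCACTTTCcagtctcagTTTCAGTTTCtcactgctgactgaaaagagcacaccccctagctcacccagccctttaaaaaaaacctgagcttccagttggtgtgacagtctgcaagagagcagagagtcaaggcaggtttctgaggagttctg

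Deaf1 peaks of both replicates were found at 16 of the 25 members that receive, sense or relay the signal (64.0%) and at 2 of the 14 inducible ones (14.3%). Of the 39 members 18 were occupied (46.2%), beside 51.6% of all protein-coding genes, so the whole list lay near the background. Within it, 4 of 6 receptor and receptor kinase genes (66.7%), 5 of 9 sensor, adaptor and adaptor kinase genes (55.6%) and 7 of 10 transcription factor genes (70.0%) were occupied. Another 7 members had a summit within 1 kb of an end in replicate 1 only, no member had one in replicate 2 only, and 14 had none in either list. Taken singly, replicate 1 had a summit at 25 members, beside 61.8% of all protein-coding genes, and replicate 2 at 18 members, beside 52.3%. The roles were set from textbook function with earlier results of these data known, and no test was made between them.

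Other rules moved few members. The calls nearest the 1 kb limit were Irf5, with summits 711 and 724 bp from its end, just inside it, and Isg15, with summits 2038 and 2024 bp from an end, and Irf3, with 1987 and 2063 bp, outside it. A window of 500 bp left 17 occupied members, without Irf5, beside 43.2% of all protein-coding genes, and one of 2 kb left the 18, beside 56.4%. A window of 5 kb gave 23, with Ifngr2, Ticam1, Irf3, Irf7 and Isg15 added, beside 61.1%. Requiring a fold of 5 or more left 17, without Stat2, beside 48.8%, and requiring a −log10 q of 5 or more left 18, beside 50.1%. Lists of equal length gave 18, beside 50.3%, and summits at either end of the gene gave 18, beside 51.8%. Summits within 100 bp of each other were found at 16, without Tbk1 and Irf1, beside 43.3%. At the listed start alone 16 of 34 members were occupied, beside 49.2% of all with a listed start. Overlapping peaks anywhere in the gene or near it gave 21, with Ifngr2, Tyk2 and Irf3 added, beside 60.8%.

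**Figure D1:**
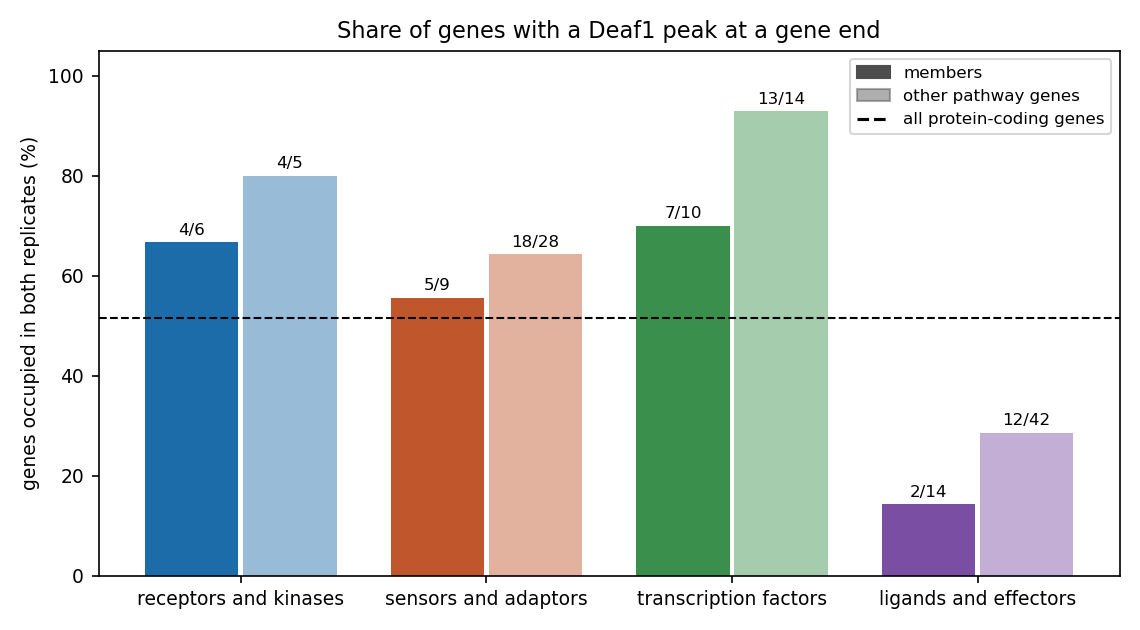
Percent of genes occupied in both replicates (vertical axis, starting at 0) for the members (dark bars, left) and for other genes of the same pathway (pale bars, right) in each role, with counts above the bars and a dashed line at the share of all protein-coding genes. The 2 of 14 inducible members and the 12 of 42 other inducible genes lie below the line at 51.6%, and the bars of the other roles lie above it.

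Among the receptor genes, both chains of the type I interferon receptor had Deaf1 peaks in both replicates. Ifnar2 (chr16:91372783-91405589), which encodes the high-affinity chain, was the only member occupied at both ends. At its lower end, where transcription starts, the fold enrichment, the ratio of the summit to the local background as the authors' peak caller gave it, was 24.6 in replicate 1 and 18.96 in replicate 2, and the summits lay 126 and 119 bp inside the gene. Beyond its higher end a peak with folds of 25.9 and 28.8 lay 757 and 753 bp outside the span and within 1 kb of Il10rb, the gene of a chain of the interleukin 10 and lambda interferon receptors. That second peak cannot be given to either gene. Ifnar1 (chr16:91485032-91510523), the other chain, had folds of 18.6 and 13.1 at its lower end, with summits 206 and 200 bp downstream of the transcription start.

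The chains of the interferon gamma receptor differed from each other. Ifngr1 (chr10:19591949-19610229), the ligand-binding chain, had folds of 19.8 and 15.6 at 276 and 265 bp downstream of its start. Ifngr2 (chr16:91547059-91564007), the signalling chain, had no summit of replicate 2 near an end, and replicate 1 had 2 weak peaks beyond its higher end, 362 and 742 bp outside, each with a fold of 4.79. Inside Ifngr2, peaks of both replicates overlapped at 2 places, one with folds of 12.1 and 7.59 lying 2205 and 2234 bp from the higher end, the other with folds of 8.30 and 7.21. No summit lay within 1 kb of its start in either list.

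**Figure D2:**
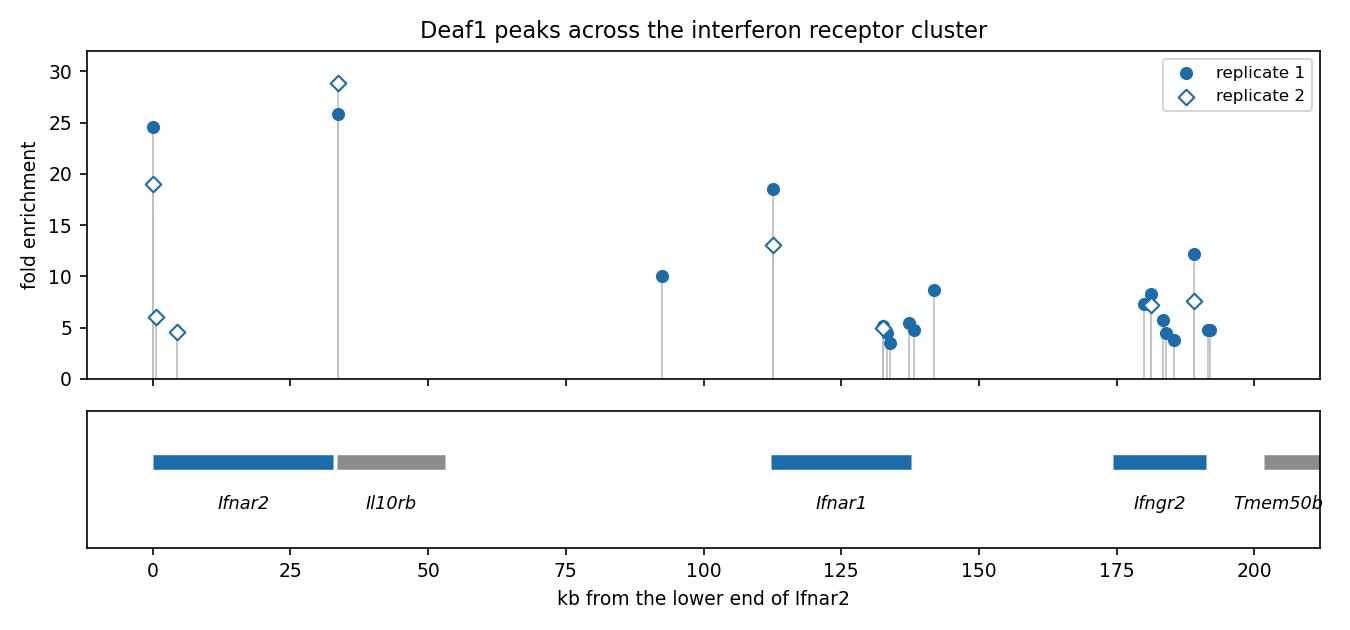
Fold enrichment (vertical axis, from 0) of every peak of replicate 1 (filled circles) and replicate 2 (open diamonds) across the receptor genes of chromosome 16, against distance in kb from the lower end of Ifnar2, with protein-coding gene spans drawn beneath (members in blue, others in grey). The peaks at the start of Ifnar2, between Ifnar2 and Il10rb, and at the start of Ifnar1 stand above those inside Ifngr2, where the highest has folds of 12.1 and 7.59.

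The receptor kinases also differed. Jak1 (chr4:101151974-101265282), which serves all interferon receptors, had folds of 25.2 and 25.8 at its higher end, where it starts, with 78 and 67 fragments at the summits. Tyk2 (chr9:21104068-21131393), the partner kinase of the type I receptor, had a peak in replicate 1 only, with a fold of 4.69 at 69 bp downstream of its listed start. Within Tyk2, 2 pairs of overlapping peaks lay deeper inside, the stronger with folds of 10.9 and 4.55 some 9734 and 9729 bp from its higher end. The highest fold of each occupied receptor and kinase gene ran from 18.6 to 25.9 in replicate 1 and from 13.1 to 28.8 in replicate 2. Both upper values belong to the peak that Ifnar2 shares with Il10rb, and at the starts alone the highest were those of Jak1.

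Of the sensors, adaptors and their kinases, Tbk1 had by far the most signal. Tbk1 (chr10:121546455-121586794), the kinase that activates Irf3, had folds of 23.2 and 31.1 at its higher end, where it starts. Its summits were 206 bp apart, 56 bp outside the gene in replicate 1 and 150 bp inside in replicate 2, and Xpot, a tRNA export gene, has an end within 1 kb of both. Myd88 (chr9:119335934-119340018), the adaptor of most Toll-like receptors, had folds of 14.4 and 12.5, with summits 156 and 83 bp inside its start. A separate peak of both replicates lay 1515 and 1688 bp outside that end, within 1 kb of Acaa1a.

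Ifih1 and Mavs, members of the cytosolic RNA pathway upstream of Tbk1, had weaker peaks than Tbk1 and Myd88. Ifih1 (chr2:62595618-62646255), the double-stranded RNA sensor MDA5, had folds of 10.5 and 9.48 at 165 and 181 bp downstream of its start. Mavs (chr2:131234063-131248025), the mitochondrial adaptor to which such sensors dock, had folds of 8.62 and 5.997, with 26 fragments at the summit in replicate 1 and 16 in replicate 2. The exact Poisson intervals of these pileups at 95%, which cover counting error only, ran from 16.98 to 38.1 and from 9.15 to 25.98. Both genes thus stood low among occupied genes in each list, Mavs at percentiles 8.38 and 9.30 and Ifih1 at 16.7 and 24.9.

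Of the Toll-like receptor members Tlr2, Tlr3 and Tlr4, Tlr2 alone was occupied. Tlr2 (chr3:83836272-83841824), the receptor for bacterial lipopeptides, was occupied at its higher end with folds of 8.99 and 6.74, over local backgrounds of 4.01 and 2.71 fragments against lowest levels of 2.13 and 1.64 in the lists. Tlr3, the endosomal sensor of double-stranded RNA, had a replicate 1 peak alone, with a fold of 4.90 lying 744 bp inside its higher end and 49 bp downstream of its listed start. Ticam1, the adaptor TRIF that Tlr3 uses, likewise had a replicate 1 peak alone, with a fold of 5.43 at 136 bp inside its start, and peaks of both replicates with folds of 10.9 and 5.31 lay 3202 and 3213 bp outside that end. Around Tlr4, the receptor for lipopolysaccharide, the nearest summits to an end were 19549 bp away in replicate 1 and 422991 bp in replicate 2. Ikbke, the inducible relative of Tbk1, had none within 1 kb, and replicate 1 alone had 2 peaks inside it with folds of 5.75 and 5.18.

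Genes of the NF-kappaB subunits led the transcription factors. Rela (chr19:5637442-5648134), the p65 subunit, had the highest mean fold of all members, with 28.7 in replicate 1 and 33.8 in replicate 2, at 75 and 63 bp downstream of its start. Its pileups were 89 and 88 fragments, with Poisson intervals of 71.5 to 109.5 and 70.6 to 108.4, and its folds stood at percentiles 98.5 and 99.2 among the occupied protein-coding genes of each list. Nfkb1 (chr3:135584655-135691969), the p105 precursor of the p50 subunit, had folds of 23.0 and 22.8 at its higher end.

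Genes of the interferon regulatory factors split between those with peaks in both lists and those without. Irf5 (chr6:29526130-29541869), which acts below Toll-like receptors, had folds of 19.5 and 22.4, with summits 711 and 724 bp inside the span and 216 and 229 bp downstream of the listed start. Irf1 (chr11:53770014-53778374), an early interferon gamma response factor, had folds of 16.6 and 20.9 with 82 and 60 fragments, at summits 129 bp apart. Irf8 (chr8:120736358-120756694), a factor best known from blood cells, had folds of 15.01 and 14.4 at 45 and 11 bp before its start. Irf2 (chr8:46739745-46847458), a relative of Irf1 that represses many of the same genes, had folds of 14.4 and 18.6 at 274 and 275 bp before its start, within reach of the noncoding gene Gm16675. A stronger pair at Irf2, with folds of 27.8 and 26.8, lay 1099 and 1184 bp inside the gene, just past the 1 kb limit.

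The factors that carry the signal of viral RNA or of type I interferon had weak peaks or peaks in 1 list. Stat2 (chr10:128270498-128292853), the partner of Irf9 in the interferon-stimulated complex, was occupied with folds of 8.89 and 4.85, close to Apof, and was no longer occupied when a fold of 5 or more was required. Irf9 had a single replicate 1 peak with a fold of 4.47, lying 309 bp inside its lower end, where its outermost listed start is. Another listed start of Irf9 lies further in, and the summit was 285 bp before that one. Irf3 (chr7:44997648-45002848) had replicate 1 peaks at both ends, with folds of 6.70 and 7.34 at the lower end and 6.07 at the higher. Overlapping peaks of both replicates with folds of 7.35 and 6.07 lay inside Irf3, 1987 and 2063 bp from the higher end. Irf7 (chr7:141263183-141266499), the amplifier of the interferon response, had replicate 1 peaks with folds of 3.83 and 5.11, at 381 and 507 bp inside its lower end, which is not the end where it starts. Beyond the other end, peaks of both replicates with folds of 10.2 and 5.31 lay 2955 and 2937 bp away, within 1 kb of Cdhr5.

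Of the 14 inducible genes, Usp18 and Bst2 alone were occupied. Usp18 (chr6:121245906-121270917), a protease that removes Isg15 and damps the type I receptor, had folds of 8.53 and 9.37, with summits 44 and 38 bp outside its lower end. Bst2 (chr8:71534255-71537472), the membrane tether tetherin, had folds of 8.94 and 5.31 at 227 and 137 bp downstream of its start, with 27 and 13 fragments. Both genes were low among occupied genes, with percentiles of 8.2 and 24.5 for Usp18 and of 9.49 and 5.64 for Bst2.

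The other 12 had no summit within 1 kb of an end in either list. They were the interferon beta gene Ifnb1, the chemokine gene Cxcl10, the ubiquitin-like modifier gene Isg15, the antiviral genes Ifit1, Ifit2, Ifit3, Rsad2, Oas1a and Oasl2, the GTPase gene Gbp2, and Mx1 and Mx2. At Ifnb1 (chr4:88522025-88522794) the nearest summits were 83178 and 199777 bp from an end. The Ifit genes of chromosome 19 had none nearer than 16554 bp, which was a replicate 1 peak with a fold of 5.11 beside Ifit1. At Rsad2 the nearest lay 12878 and 12976 bp away, with folds of 13.6 and 10.2. Mx1 had a lone replicate 2 peak inside it, with a fold of 3.79.

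Isg15 (chr4:156199424-156200818) was the exception in having strong peaks close by. A peak with folds of 19.6 and 23.9 lay 2038 and 2024 bp outside its lower end and within 1 kb of an end of Agrn, the gene of the synaptic protein agrin. Another, with folds of 16.9 and 8.09, lay 2604 and 2477 bp outside its higher end and within 1 kb of Perm1, a regulator of muscle mitochondria. With a 5 kb window Isg15 would count as occupied, but these peaks stood at ends of other genes.

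Across the 18 occupied members the highest fold at the shared end had a median of 15.8 in replicate 1 and 15.02 in replicate 2, beside 16.4 and 15.2 over all 11164 occupied protein-coding genes. Ifnar2 entered here with the peak it shares with Il10rb. In both lists 8 members stood at or above the 50th percentile of occupied genes, and 6 stood below the 25th, namely Tlr2, Ifih1, Mavs, Stat2, Bst2 and Usp18. The fold was higher in replicate 1 at 10 members and in replicate 2 at the other 8. The summit pileups ran from 26 to 89 fragments in replicate 1 and from 13 to 88 in replicate 2. Fewer cells or alleles bound by Deaf1 and less Deaf1 at each cannot be told apart in such bulk data. Because no control peak list was used, signal that any open promoter may give and Deaf1 binding cannot be told apart either.

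**Figure D3:**
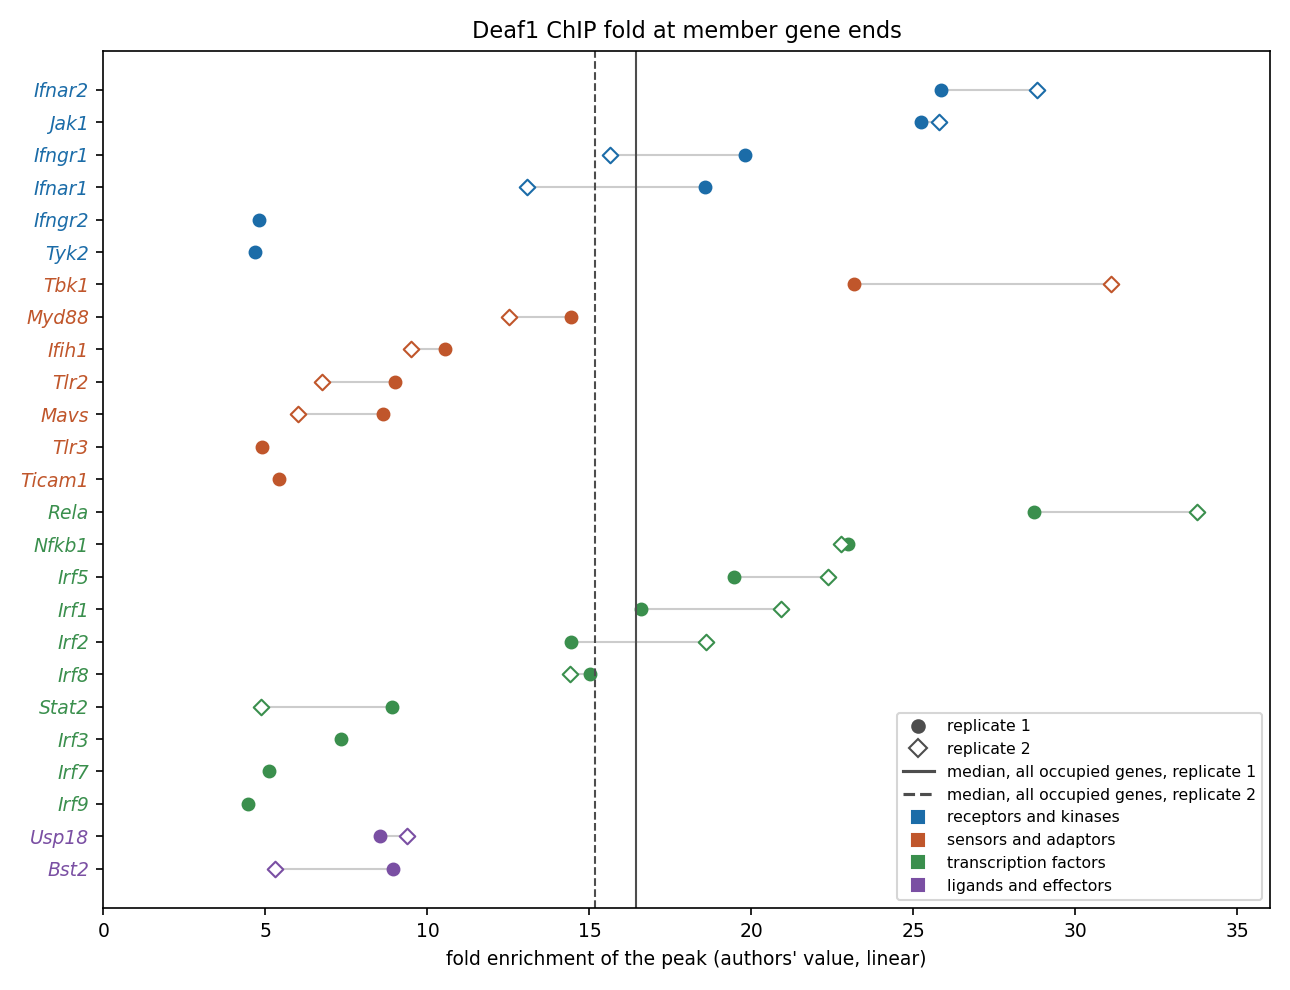
Fold enrichment (horizontal axis, linear, from 0) of the highest summit in replicate 1 (filled circles) and replicate 2 (open diamonds) at the 18 occupied members and in replicate 1 at the 7 members with a peak in that list only, coloured by role, with vertical lines at the medians of all occupied protein-coding genes (16.4 and 15.2). Rela, Tbk1, Ifnar2 and Jak1 lie to the right of both lines, and all 7 members with a replicate 1 peak only lie at or below 7.34. Ifnar2 is drawn at the peak it shares with Il10rb.

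The 7 members with peaks in replicate 1 only were Ifngr2, Tyk2, Tlr3, Ticam1, Irf3, Irf7 and Irf9. Their 11 peaks had folds of 3.83 to 7.34 and pileups of 11 to 22 fragments, while the highest peak of each occupied member in that list had a fold of at least 8.53 and a pileup of at least 26. The weaker additional replicate 1 peaks of Ifnar1, Bst2, Irf8 and Stat2 lay within both ranges of these 11. That of Ifngr1 lay within the range of folds only, with a pileup of 24. At the lowest background the lists reach down to 8 fragments in replicate 1 and 7 in replicate 2. Replicate 1 has 65606 peaks and replicate 2 has 26503, and when replicate 1 was shortened to its strongest 26503 peaks the same 18 members were occupied.

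Where the table gives a transcription start, the peaks at occupied members stood at that end. This held for all 16 occupied members with a listed start, and among peaks of both replicates the second one of Ifnar2 was the only one at the other end. Replicate 1 alone had further, weaker peaks at the other end of Ifnar1, with folds of 5.43 and 4.79 at 478 bp inside and 452 bp outside, and of Ifngr1, with a fold of 5.76 at 766 bp inside. At the occupied end itself replicate 1 had an additional weaker summit at Irf8 (fold 5.43, 349 bp inside), Stat2 (5.75, 761 bp outside) and Bst2 (5.11, outside), and replicate 2 had one at Ifnar2 (6.07, 539 bp inside). In 15 of the 16 both summits lay within 300 bp of the outermost start, Irf1 being the exception at 317 and 446 bp, and in 13 both lay downstream of the outermost start. Irf1 has another listed start, and its summits lay 142 and 13 bp before that one. Summits of the replicates were between 1 and 206 bp apart over the 19 occupied ends, with a median of 19 bp, and at 17 ends they were within 100 bp. Other genes had an end within 1 kb of both summits at 4 of the 19 ends, namely Il10rb, Xpot, Apof and Gm16675, of which the first 3 are protein coding.

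Motif letters were searched in the 34 member promoters of the table, in the 300 bases described for the sequences above. TTCG on either strand was present in 20 of 34 (58.8%), beside 49.4% of all 17274 protein-coding promoters, and in 11 of the 16 occupied members (68.8%), beside 61.0% of all occupied genes. Rela had 2 matches and Tbk1 had 2. Irf8, Irf5, Jak1, Ifnar1 and Ifngr1 had 0 in this window and were occupied, as were 39.5% of all protein-coding genes with 0 matches. A pair of matches with 5 to 15 bases between them was present in 0 of the 34 promoters, beside 3.0% of all. In 14 of the 16 occupied members both summits lay outside the window searched, mostly downstream of it, so the bases at those summits were not read. The peaks themselves can reach over the window, as both peaks of Rela do over all of it.

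The interferon-response core, GAAA, any 2 bases and GAAA again on either strand, was most frequent in the role with the lowest share occupied. It was present in 8 of 11 inducible promoters (72.7%), in 2 of 8 sensor and adaptor promoters, in 2 of 9 transcription factor promoters and in 0 of 6 receptor promoters, beside 3.43% of all. Isg15 had 3 overlapping matches, the middle one GAAACCGAAA starting 72 bases before the transcription start. In Ifit1 the matches lay 104 and 85 bases before the start, and in Bst2 130 and 124 bases before it. Of the 12 members with a match 5 were occupied, namely Ifih1, Myd88, Stat2, Irf2 and Bst2, beside 200 of all 593 protein-coding genes with a match. Matches to the core can overlap a half-site, as they do in Ifih1, Myd88 and Isg15.

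**Figure D4:**
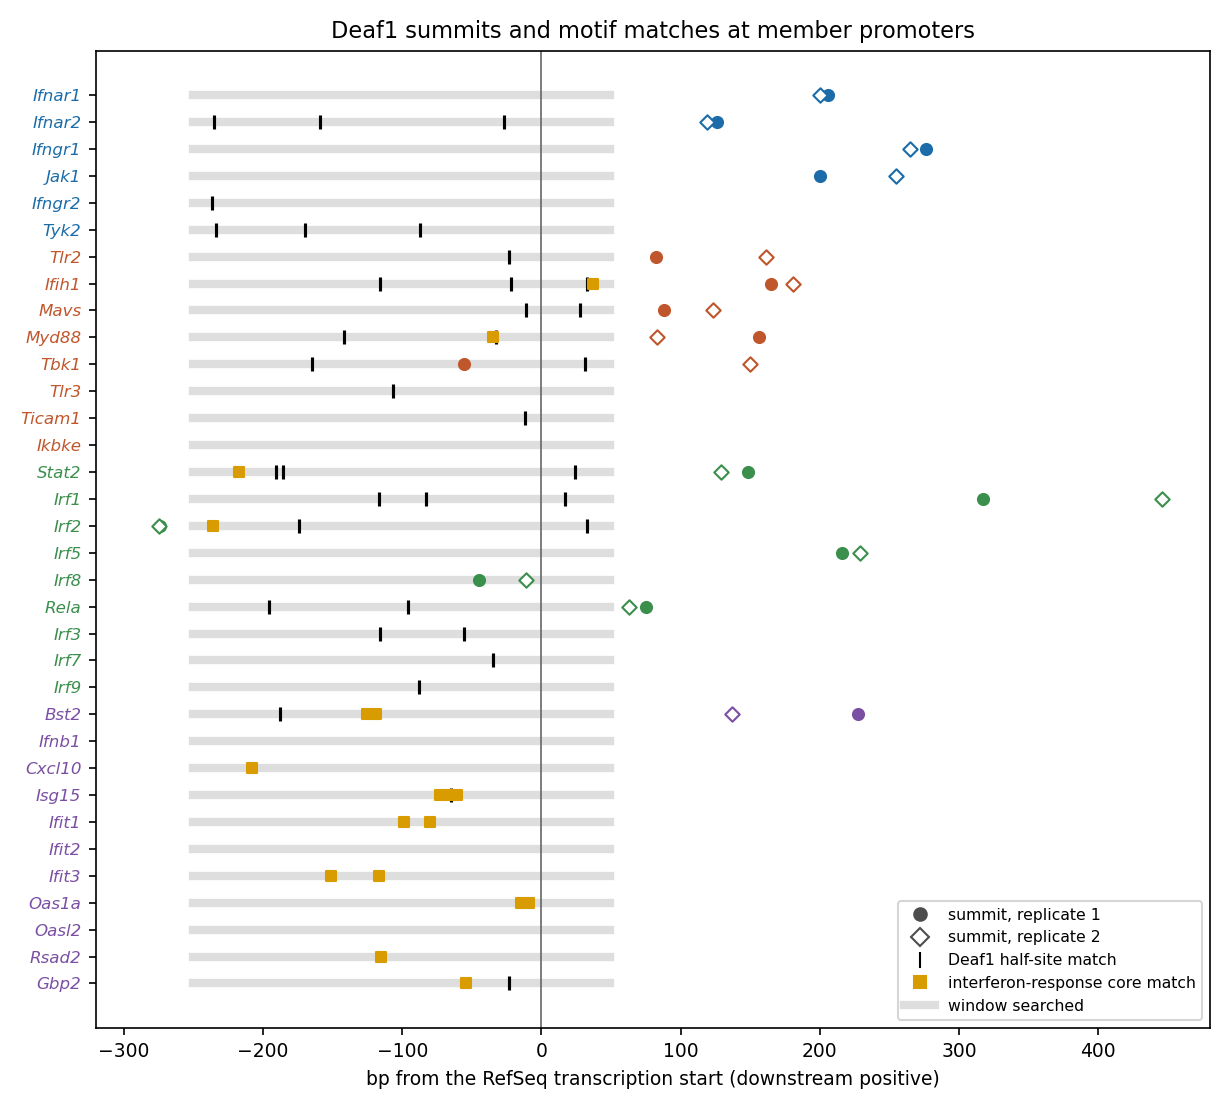
Positions in bp from the outermost listed transcription start (horizontal axis, downstream positive) of the Deaf1 summits of occupied members in replicate 1 (filled circles) and replicate 2 (open diamonds), of half-site matches (black ticks) and of interferon-response core matches (yellow squares) for the 34 members with a promoter sequence, occupied ones first within each role. Grey bars show the window searched, and in 14 of the 16 occupied members both summits lie outside it.

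The promoters of the roles also differed in CpG content, measured as the number of CpG dinucleotides over the number expected from the C and G content of the same 300 bases. The median ratio was 0.27 over the 11 inducible genes, 0.815 over the 6 receptor genes, 0.569 over the 8 sensor and adaptor genes and 0.813 over the 9 factor genes. The highest ratio of an inducible gene, 0.528 at Cxcl10, was below the lowest of a receptor gene, 0.6 at Ifngr1. At a ratio of 0.6 or more 14 of 17 members were occupied (82.4%), beside 80.8% of all protein-coding genes with such promoters. Below 0.6 it was 2 of 17 members (11.8%), namely Tlr2 and Bst2, beside 22.9% of all. Members not occupied despite a high ratio were Ifngr2 (0.843), Tyk2 (0.936) and Irf3 (0.712). CpG ratio and role moved together in this list, and the part of the CpG ratio in the difference between roles was not tested.

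**Figure D5:**
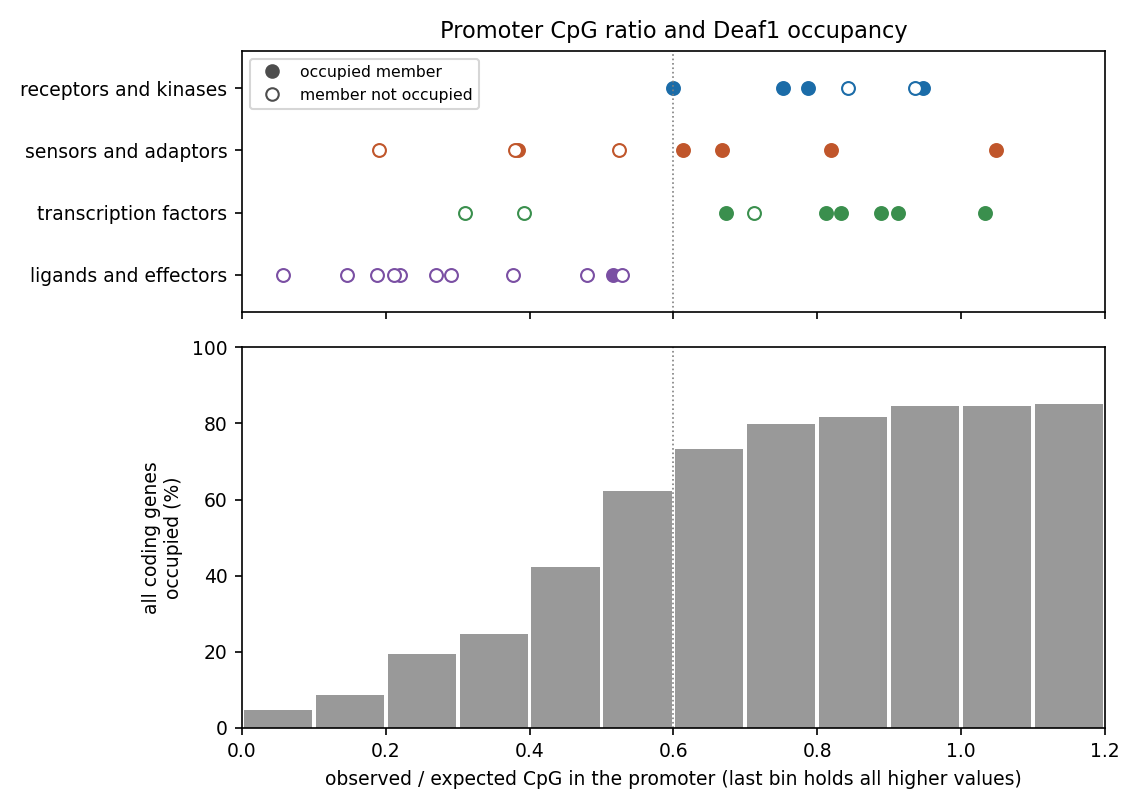
Upper panel, the CpG ratio (horizontal axis, observed over expected) of each member promoter by role, filled where the gene is occupied and open where it is not. Lower panel, the percent of all protein-coding genes occupied in bins of the same ratio, with 4.63% in the lowest bin and 85.1% in the highest, with a dotted line at 0.6 that all 11 inducible genes lie left of.

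Deaf1 peaks also lay deeper inside the members, more than 1 kb from either end. Replicate 1 had 51 such peaks, of which 11 overlapped a replicate 2 peak, and replicate 2 had 13, of which 11 overlapped a replicate 1 peak. The overlapping ones were in 9 members, 6 of them occupied, namely Ifnar1, Tbk1, Irf2, Irf8, Nfkb1 and Rela, and 3 with a replicate 1 peak only at an end, namely Ifngr2, Tyk2 and Irf3. The share of all protein-coding genes with such overlapping peaks is not given here, so 9 members can be called neither many nor few. Besides the pairs of Irf2 and Ifngr2 given above, the strongest were in Nfkb1, with folds of 12.9 and 6.83, in Irf8, with 12.5 and 7.59, and in Rela, with 11.2 and 8.34.

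A list of 89 further genes of the same pathway had its lowest share among inducible genes. This list and its roles were chosen with earlier results of these data known, so it is no independent check. Of the 89, 47 were occupied (52.8%), beside 51.6% of all protein-coding genes. Receptors and their kinases were occupied in 4 of 5 cases, sensors and adaptors in 18 of 28 (64.3%), factors and their regulators in 13 of 14 (92.9%) and inducible genes in 12 of 42 (28.6%). The other listed Toll-like receptor genes were looked up after their values were seen. Tlr1, Tlr7 and Tlr8 had no peak at an end, and Tlr5 had one in replicate 1 only. Tlr6 was occupied with folds of 23.3 and 23.4, at a peak it shares with Fam114a1. That peak lies inside the span of Tlr6 but upstream of its listed start. Tlr9 was occupied with 12.8 and 9.10, at the end where it does not start. Among receptors and their kinases, those with the highest ranks were the cytokine receptor gene Il6st, with folds of 28.01 and 29.1, and Il10rb, at the peak it shares with Ifnar2. Among sensors and adaptors they were Azi2, an adaptor of Tbk1, with 27.1 and 21.1 at an end it shares with Zcwpw2, and the ubiquitin ligase gene Traf3, with 25.2 and 26.9. Among factors they were Nfkbia, the inhibitor of NF-kappaB, with 25.2 and 26.2, and Relb with 22.3 and 24.3. The highest inducible ones were Adar, the RNA editing enzyme, with 25.2 and 25.03, and Xaf1 with 14.4 and 21.6, at a peak 783 and 757 bp beyond the end where it does not start and within 1 kb of Fbxo39.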

How the data were processed

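Peaks of 2 Deaf1 ChIP-seq replicates of C2C12 cells were used. The submitters' processing notes name BWA, MACS2 and build mm10. Versions, settings and the peak caller's control sample: not given in the sources used here. Peaks were called per replicate, 65606 and 26503 in number. Of each peak the fold enrichment (a ratio) is the authors' own value, used only to describe and rank within a list, and the −log10 p and −log10 q values and the score (10 times −log10 p, rounded down) are deposited values too. Start, end and summit are deposited positions, given here 1-based. Percentiles rank the highest fold at a shared end among the 11164 occupied protein-coding genes of that list.

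Read depth is unknown. Summit pileup and local background were recovered from fold and −log10 p, as the whole number of fragments that fits both under a Poisson model, with 1 added to each in the fold. The largest misfit in −log10 p was 4.07e-05. The step was checked on simulated peaks, and the occupancy count on planted summits. Gene spans, promoter sequences and starts came from RefSeq tables of GRCm38.p6, where 34 of 39 members have a promoter. Spans cover all models of a gene, so promoters inside a span count only near its ends. For genes with several starts the outermost promoter was searched.

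The members, roles, lists and CpG limit were chosen with earlier results of these data known. Every member is named, and of the 89 other pathway genes (2 matched by synonym) the 2 with the highest mean percentile in each role. Others are named where the text says that they were looked up or singled out after their values were seen. With 2 lists and no second condition nothing was tested, and shares stand beside those of all protein-coding genes, except for peaks deeper inside the members. Alternatives were windows of 500 bp, 2 kb and 5 kb, a fold or −log10 q of 5 or more, equal list lengths, each replicate alone, either end, summits within 100 bp, the 5-prime end only, and shared peaks anywhere in the gene. Python 3.11.15, pandas 2.3.3 and scipy 1.17.1 were used.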

Additional observations from a re-analysis of the deposited data

How the results depend on the processing

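No paired analysis was possible because no peaks of the inputs, whose replicate numbers match those of the ChIP samples, were analysed. In all 12 alternatives the counts of occupied members, in total and by role, stayed within 1.5 times the main count, taken for the 5-prime end rule over members with a listed start in both. From 4 of 6 receptor and 7 of 10 factor genes no rise could pass that limit, so for these roles it shows no stability against a rise. With replicate 1 alone they reached 6 of 6 and 10 of 10, beside 61.8% of all protein-coding genes. The total ran from 16 with summits within 100 bp, where Tbk1 and Irf1 left, to 25 with replicate 1 alone, where the 7 single-replicate members entered. Without replicate 1 it was 18 and without replicate 2 it was 25. Inducible genes numbered 2 of 14 in every alternative except the 5 kb window (3 of 14) and the 5-prime end rule (1 of 11 with a listed start). Without a control list, depth and the caller's threshold limit what the absence of a peak shows.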

Other observations

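The 12 occupied genes among the 42 other inducible genes gathered in part in 2 clusters, which were singled out after their values were seen. On chromosome 16 Parp9 and Dtx3l, neighbours that act together in the interferon response, shared a peak with folds of 13.7 in replicate 1 and 5.69 in replicate 2, and Parp14 close by had 15.3 and 9.10. On chromosome 17 the antigen processing genes Tap1 and Psmb9 shared a peak with folds of 20.4 and 12.1. At its other end Tap1 shared one with Psmb8, with folds of 8.62 and 5.31, and Tap2 had folds of 13.1 and 9.86. Cmpk2, which lies next to Rsad2, had folds of 13.6 and 10.2, the peak nearest to Rsad2.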
